A study of Rattus norvegicus with 12 samples.

Results

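Collagen chain genes encode the subunits of the collagens, and they were taken here as every row whose symbol is Col, a number, a and a second number. The rule found 42 genes among the 35966 symbols of the table. By the structures their proteins form, 10 encode chains of fibrillar collagens, 9 chains of basement membrane collagens and 23 chains of other types. A filter on low values (at least 1 TPM in at least 3 libraries) left 21 of the 42 for testing, made up of 8 fibrillar, 4 basement membrane and 9 other genes. Col1a2, Col21a1 and Col23a1 were not analysed here, and sums and shares of collagen transcripts therefore leave out Col1a2, the partner chain of Col1a1 in type I collagen.

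A collagen is built from 3 chains wound around each other, which are hydroxylated and folded in the endoplasmic reticulum, secreted, trimmed and crosslinked outside the cell. Fibrillar collagens, above all types I and III, form the tension-bearing fibres of connective tissue and of the spaces between heart muscle cells, whereas type IV collagen forms the sheet-like network of the basement membrane that surrounds each muscle cell. The remaining types decorate fibrils, form beaded filaments or short-chain networks, or span the cell membrane.

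The libraries came from H9c2(2-1), a WT rat line of myoblasts derived from embryonic heart, in 4 groups of 3 libraries. The GD group was deprived of glucose for 36 h, and a further 2 groups were deprived for 36 h in the presence of 100 µM or 200 µM empagliflozin, an inhibitor of the kidney glucose transporter SGLT2 that is used against diabetes and heart failure. Control cells grew in high-glucose DMEM with 10% FBS. The question was how deprivation changed transcript levels and how the drug changed them in deprived cells. All groups are 1 cell line. Whether the deprived cells had serum, what the drug was dissolved in and how libraries were batched is not stated in the labels. Nothing says whether the 3 libraries per group come from independent cultures, and p-values therefore measure the spread between these libraries, which may be technical.

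Levels are TPM, that is, transcript abundances per unit of transcript length scaled to a common total, so that levels of different genes can be set side by side. Values per library are given in the order of replicates 1, 2 and 3. Library totals lay between 946400.5 and 981389.8 TPM. Ribosomal protein and ferritin transcripts took 38.1% to 42.05% of the total in GD libraries, 38.5% to 41.6% at 100 µM, 36.3% to 38.0% at 200 µM and 19.1% to 19.7% in control libraries. The median log2 fold change of all genes in GD against control was -0.65, and scaling by median of ratios, which sets that median to 0, is given beside the main values where it changes a count. The number of genes at 1 TPM or more was lowest in GD replicate 3 (10551, against 10939 and 10951 in the other GD libraries). Markers of skeletal myoblasts reached 1 TPM in at least 3 libraries for 4 of 6 genes, and their summed level was 78.8 to 93.8 TPM in GD, 54.1 to 86.6 TPM at 100 µM, 63.2 to 100.6 TPM at 200 µM and 321 to 342 TPM in control libraries. The labels call the cells myocardial, but 5 of 8 cardiomyocyte markers (Nppa, Nppb, Myh6, Actn2 and Nkx2-5) stayed under 1 TPM in every library. Tnnt2, cardiac troponin T, averaged 23.1 TPM in GD, 22.3 TPM at 100 µM, 42.5 TPM at 200 µM and 142 TPM in control cells, and Gata4 was at 2.1, 2.07, 2.28 and 5.89 TPM in the same order. The summed cardiomyocyte markers were 23.1 to 29.1 TPM in GD, 19.5 to 32.8 TPM at 100 µM, 32.4 to 66.2 TPM at 200 µM and 138 to 161 TPM in control libraries. Of 7 fibroblast markers, 4 reached 1 TPM in at least 3 libraries, Tcf21 was listed at 0 in every library, and Dcn stayed under 1 TPM. The summed fibroblast markers were 1693 to 1899 TPM in GD, 1168 to 1463 TPM at 100 µM, 2026 to 2447 TPM at 200 µM and 3685 to 3763 TPM in control libraries. Most of this sum was Vim, which averaged 1618, 1092, 1760 and 2512 TPM in the same order. At 200 µM Postn averaged 215 TPM against 185 TPM in control cells, and Dcn 0.397 against 0.0667 TPM. No other listed fibroblast marker had a mean above control at that dose. Endothelial markers summed to 0.5 TPM or less in every library, with none of 5 at 1 TPM, and leukocyte markers to 3.51 TPM or less. The myoblast, cardiomyocyte and fibroblast sums were lower in the deprived groups, as the collagens were, and the part of a change in cell makeup in the collagen results was not tested.

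Upstream sequence was available for 33 of the 42 genes in RefSeq (GRCr8). The Col4a1 and Col4a2 genes start head to head, and the 76 bases between their starts are shown because the levels of these partner chains are compared below. The windows of Col5a2 and Col11a1 are the 250 bases before each gene's start. They are shown because, among the tested genes with a window, only these overlap no annotated gene. At 200 µM Col5a2 was higher than in GD, while Col11a1 was not called. Whether these responses differ, or relate to the sequences, was not tested. Capitals mark a GC box (GGGCGG, or CCGCCC on the other strand) or a CCAAT box (CCAAT or ATTGG). The Col4a1-Col4a2 interval, chr16:84885521-84885596 on the plus strand, had 78.9% G and C. The Col5a2 window, chr9:55090152-55090401 on the minus strand, had 44.8%, and that of Col11a1, chr2:204508886-204509135 on the plus strand, had 65.6%.
Col4a1-Col4a2 interval: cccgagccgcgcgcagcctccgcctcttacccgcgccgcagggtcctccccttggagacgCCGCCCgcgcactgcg
Col5a2 upstream: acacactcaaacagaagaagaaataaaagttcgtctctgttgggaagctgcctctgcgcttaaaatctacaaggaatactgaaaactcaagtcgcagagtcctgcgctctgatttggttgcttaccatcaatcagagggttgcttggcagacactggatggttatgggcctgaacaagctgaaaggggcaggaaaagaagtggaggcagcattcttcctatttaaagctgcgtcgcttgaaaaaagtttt
Col11a1 upstream: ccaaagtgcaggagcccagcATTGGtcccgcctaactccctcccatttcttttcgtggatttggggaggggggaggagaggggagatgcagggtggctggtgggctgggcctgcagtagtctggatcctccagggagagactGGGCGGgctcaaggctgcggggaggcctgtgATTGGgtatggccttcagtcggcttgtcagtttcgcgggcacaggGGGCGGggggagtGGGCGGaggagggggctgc
The interval held 1 GC box, the Col5a2 window held none of the motifs searched, and the Col11a1 window held 3 GC boxes and 2 CCAAT boxes. A GC box was found in 30.5% of 33365 rat windows of this length and in 19 of 36 windows of collagen genes, and a CCAAT box in 34.0% and in 11 of 36. A TATA box (TATAAA or TTTATA) was found in 12.9% of all windows and in 3 of the 36. The members' windows had a median G and C content of 58.6%, with a range of 40.4% to 75.2%.

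Collagen transcripts made up 0.110%, 0.151% and 0.0797% of the total TPM in GD libraries, against 1.69%, 1.84% and 1.80% in control libraries. At 100 µM they made up 0.0986%, 0.198% and 0.116%, and at 200 µM 0.343%, 0.298% and 0.271%. Every deprived library lay far below every control library, the 200 µM libraries lay above all GD and 100 µM libraries, and the GD and 100 µM groups overlapped. The mean was 0.114% ± 0.0360 in GD, 0.138% ± 0.0528 at 100 µM, 0.304% ± 0.0362 at 200 µM and 1.77% ± 0.0770 in control libraries (SD, n = 3 each), so that the group means stood at 6.41%, 7.76% and 17.1% of control. The exact permutation test gave two-sided p = 0.1, the smallest that 3 against 3 libraries allow, for every comparison except 100 µM against GD (p = 0.6); adjusted over 24 tests of shares these were 0.12 and 0.6. In these bulk samples, fewer cells that make collagen and less collagen RNA per cell cannot be told apart.

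The number of collagen genes at high levels was also lower in deprived cells. Group means reached 100 TPM for 3 collagen genes in GD, 3 at 100 µM, 3 at 200 µM and 6 in control cells. Means of 10 to 100 TPM were found for 2, 4 and 7 genes in GD, 100 µM and 200 µM cells and for 8 in control cells. Means under 1 TPM were found for 26, 25 and 25 genes in the deprived groups in the same order and for 20 in control cells. Among all genes, those at 1 TPM or more numbered 10551 to 10951 in GD and 12018 to 12074 in control libraries. The share of all genes in each band was not computed, so the counts are not read as particular to collagens.

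**Figure D1:**
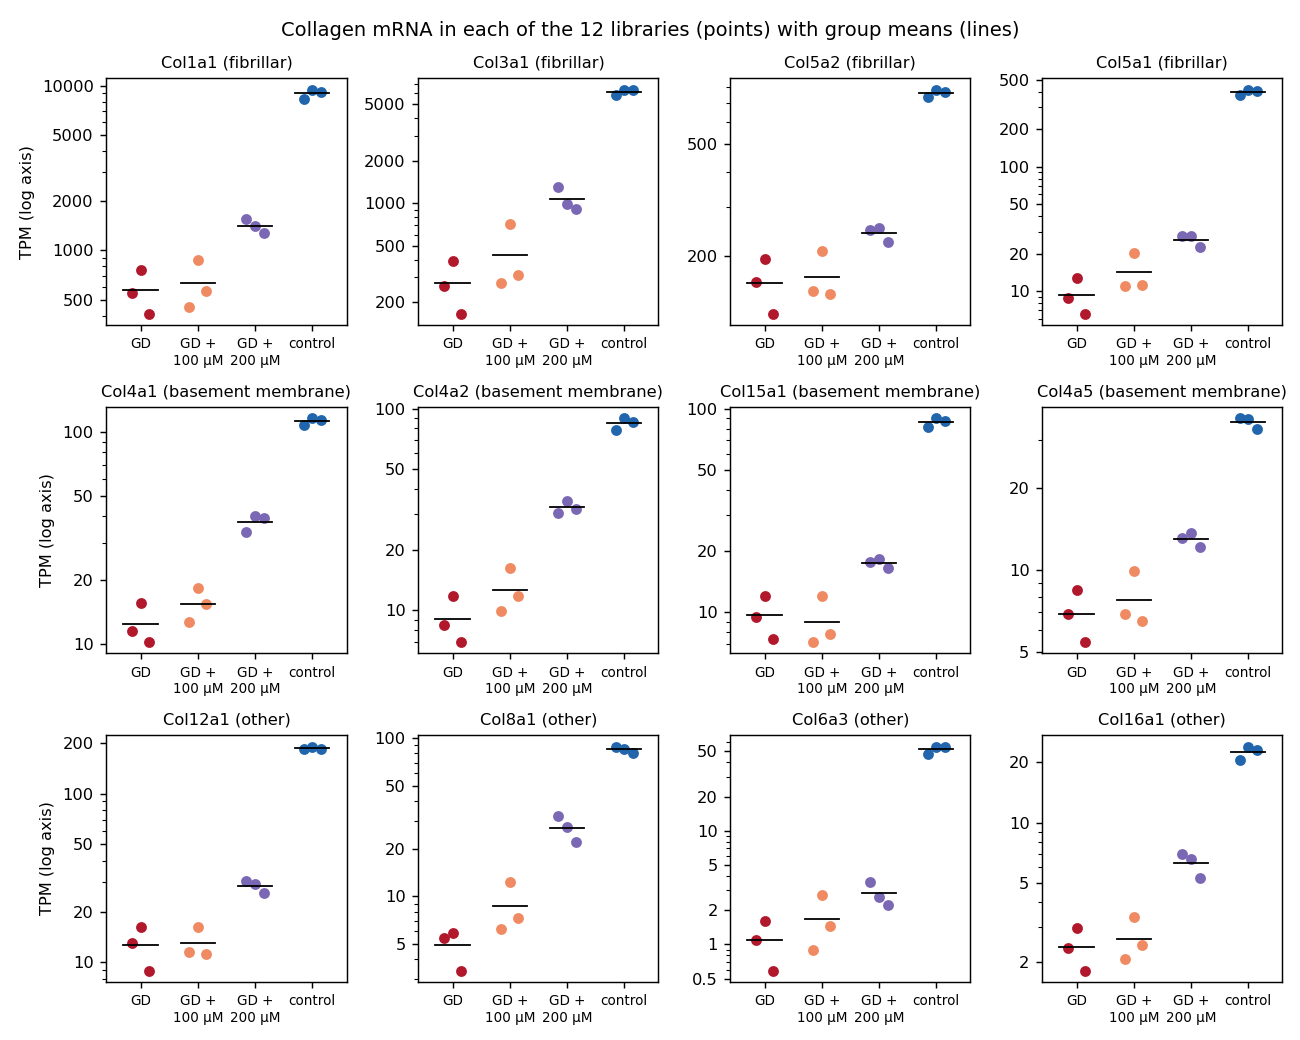
TPM of 12 collagen chain genes, the 4 of highest mean in each class, on a log axis with its own range for each gene, with 1 point per library and a line at the group mean. Col1a1 lies between 414 and 756 TPM in GD libraries, between 1278 and 1555 TPM at 200 µM and between 8327 and 9452 TPM in control libraries.

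Under glucose deprivation collagen genes of every class fell, although Col6a5 was higher in GD after quantile normalization. Of the 21 tested genes 20 fell and 0 rose (limma adjusted p under 0.05 over all genes), against a background of 67.6% of all 12314 tested genes lower and 14.0% higher. The share of all genes at an unadjusted p under 0.05 was not computed, and none of the 21 was higher at that p. Their median log2 fold change was -2.85, on a log2(TPM + 1) scale, against -0.65 for all genes tested. With median-of-ratios scaling 19 fell and 0 rose, where 38.5% of all genes were lower and 38.5% higher, and the collagen median was -2.15. Col10a1, Col2a1 and Col8a2 reached 1 TPM in control libraries alone, so passing the filter made a lower value in deprived cells certain. Col6a5 reached it in 3 control libraries, 1 library at 100 µM and no GD library, so the filter favoured a lower value in GD. By class, 8 of 8 fibrillar genes fell, with a median of -3.04, 4 of 4 basement membrane genes, with a median of -3.08, and 8 of 9 others, with a median of -2.64. With a pseudocount of 0.1 these medians were -3.61, -3.19 and -3.53, so the order of the classes depended on that setting.

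The fibrillar genes held most of the collagen transcript. Col1a1, which encodes the main chain of type I collagen, was at 555, 756 and 414 TPM in GD libraries, 453, 872 and 568 TPM at 100 µM, 1555, 1397 and 1278 TPM at 200 µM and 8327, 9452 and 9113 TPM in control libraries. Its groups did not overlap except GD with 100 µM, and it was lower in GD than in control cells by a log2 fold change of -4.00 (SE 0.22, limma adjusted p = 2.18e-09). At 200 µM it was above GD by 1.33 (SE 0.22, limma adjusted p = 0.000328). Col3a1, the chain of type III collagen, which forms thinner and more pliant fibres, was at 262, 392 and 166 TPM in GD, 275, 709.8 and 313 TPM at 100 µM, 1311, 991 and 907 TPM at 200 µM and 5772, 6276 and 6339 TPM in control libraries. Replicate 2 was the highest library of both GD and 100 µM for Col3a1, and the 200 µM libraries all lay above these groups. The log2 fold change was -4.57 in GD against control (SE 0.33, limma adjusted p = 2.73e-08) and 2.03 at 200 µM against GD (SE 0.33, limma adjusted p = 0.000279).

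Type V collagen joins type I in fibrils and limits their width, and all 3 of its chain genes fell in GD. Col5a1 was at 8.84, 12.7 and 6.58 TPM in GD libraries, 10.99, 20.2 and 11.2 TPM at 100 µM, 27.7, 27.5 and 22.6 TPM at 200 µM and 379, 416 and 404 TPM in control libraries. Its GD mean stood at 2.34% of the control mean, with a log2 fold change of -5.31 (SE 0.22, limma adjusted p = 2.01e-10), the lowest value of the 21 tested collagen genes. At 200 µM it was above GD by 1.41 (SE 0.22, limma adjusted p = 0.000217). Col5a2, the partner chain, was at 162, 196 and 125 TPM in GD, 149.99, 208 and 146 TPM at 100 µM, 248, 251 and 225 TPM at 200 µM and 740.3, 783 and 771 TPM in control libraries. Its GD mean kept 21.0% of the control mean, with a log2 fold change of -2.27 (SE 0.15, limma adjusted p = 1.17e-08). The 200 µM libraries were above all GD libraries, with a log2 fold change of 0.61 between the groups (SE 0.15, limma adjusted p = 0.0051). Col3a1 and Col5a2 are neighbours in the GRCr8 annotation, and the GD mean of Col3a1 was 4.46% of control. Col5a3, a further type V chain, averaged 2.44 ± 0.36 TPM in GD, 3.44 ± 0.48 TPM at 100 µM, 6.96 ± 1.05 TPM at 200 µM and 31.3 ± 2.22 TPM in control cells (SD, n = 3 each).

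Among the fibrillar genes of lower level, Col11a1, Col27a1 and Col2a1 also fell in GD, and of these Col27a1 alone was called at 200 µM against GD. Col11a1, a chain of the type XI collagen of cartilage and early fibrils, averaged 4.61 ± 1.75 TPM in GD, 3.95 ± 2.12 TPM at 100 µM, 4.95 ± 0.72 TPM at 200 µM and 38.0 ± 0.62 TPM in control cells (SD, n = 3 each). The 3 deprived groups overlapped, and 200 µM differed from GD by 0.13 (limma adjusted p = 0.72). Col27a1, a fibrillar chain of cartilage, averaged 0.263 ± 0.067 TPM in GD, 0.347 ± 0.112 TPM at 100 µM, 1.16 ± 0.193 TPM at 200 µM and 4.21 ± 0.215 TPM in control cells, and it rose at 200 µM by 0.77 over GD (limma adjusted p = 6.57e-05). Col2a1, the main cartilage collagen, was at 0.36 TPM or less in every deprived library and at 1.62 to 2.02 TPM in control libraries. Col11a2, which did not pass the filter, was lowest in control libraries, at 0.5, 0.33 and 0.55 TPM in GD, 1.1, 1.12 and 0.75 TPM at 100 µM, 0.84, 0.86 and 0.66 TPM at 200 µM and 0.14, 0.21 and 0.22 TPM in control libraries. It was singled out after its values were seen, its levels are near the lower end of what the table holds, and without a filter it was higher in GD than in control cells by 0.29 (SE 0.09, limma adjusted p = 0.0166). Without a filter it was also higher than GD at 100 µM (0.44, limma adjusted p = 0.0178) and at 200 µM (0.29, limma adjusted p = 0.0376).

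The 4 tested basement membrane genes had log2 fold changes between -3.11 and -2.20 in GD against control. Col4a1 and Col4a2 encode the chains of the common form of type IV collagen. Col4a1 was at 11.4, 15.6 and 10.2 TPM in GD libraries, 12.6, 18.3 and 15.4 TPM at 100 µM, 33.8, 40.01 and 39.1 TPM at 200 µM and 108, 116 and 114 TPM in control libraries. Col4a2 was at 8.43, 11.8 and 6.96 TPM in GD, 9.93, 16.2 and 11.7 TPM at 100 µM, 30.2, 34.96 and 31.9 TPM at 200 µM and 77.9, 89.7 and 85.5 TPM in control libraries. Both were lower in every GD library than in every control library, with log2 fold changes of -3.10 for Col4a1 (SE 0.15, limma adjusted p = 5.8e-10) and -3.11 for Col4a2 (SE 0.17, limma adjusted p = 2.69e-09). At 200 µM both rose over GD, by 1.55 (SE 0.15, limma adjusted p = 4.09e-06) and 1.75 (SE 0.17, limma adjusted p = 6.07e-06), to 33.4% and 38.4% of the control mean in TPM. The log2 fold changes at 200 µM against control were -1.56 and -1.36, or -0.99 and -0.79 with median-of-ratios scaling.

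Col4a5, a chain of the type IV collagen of kidney and other specialised basement membranes, was at 6.87, 8.45 and 5.44 TPM in GD libraries, 6.89, 9.97 and 6.5 TPM at 100 µM, 13.1, 13.7 and 12.2 TPM at 200 µM and 36.2, 36.0 and 32.9 TPM in control libraries. Its fall under deprivation was -2.20 on the log2 scale (SE 0.15, limma adjusted p = 2.15e-08). All 200 µM libraries were above all GD libraries, with a log2 fold change of 0.84 between the groups (SE 0.15, limma adjusted p = 0.000743). Col15a1, which links basement membranes to the fibres around muscle and vessels, was at 9.52, 12.02 and 7.41 TPM in GD, 7.13, 12.1 and 7.79 TPM at 100 µM, 17.6, 18.2 and 16.5 TPM at 200 µM and 81.8, 90.1 and 87.35 TPM in control libraries. It was lower in GD than in control cells by a log2 fold change of -3.06 (SE 0.17, limma adjusted p = 2.83e-09) and higher at 200 µM than in GD by 0.81 (SE 0.17, limma adjusted p = 0.00199). The other type IV chains were close to 0, with Col4a3 at 0.26 TPM, Col4a4 at 0.11 TPM and Col4a6 at 0.04 TPM at most. Col18a1, the source of endostatin, reached 1.31 TPM in 1 control library and no other member that was left untested reached a higher value in any library.

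Among the other collagens, the fibril-associated Col12a1 and Col16a1 fell in GD and rose at 200 µM over GD. Col12a1, a chain that binds the surface of type I fibrils, was at 13.1, 16.2 and 8.94 TPM in GD libraries, 11.6, 16.2 and 11.2 TPM at 100 µM, 30.4, 29.1 and 25.9 TPM at 200 µM and 184, 190.2 and 184 TPM in control libraries. Its log2 fold change was -3.81 in GD against control (SE 0.17, limma adjusted p = 3.9e-10) and 1.13 at 200 µM against GD (SE 0.17, limma adjusted p = 0.000167). Col16a1, a related chain, was at 2.35, 2.98 and 1.82 TPM in GD, 2.07, 3.38 and 2.44 TPM at 100 µM, 7.0, 6.55 and 5.27 TPM at 200 µM and 20.6, 24.02 and 23.2 TPM in control libraries. For both genes GD and 100 µM overlapped while the 200 µM libraries lay above them and below control, and Col16a1 fell by 2.81 on the log2 scale in GD (SE 0.16, limma adjusted p = 3.02e-09). At 200 µM it was above GD by 1.11 (SE 0.16, limma adjusted p = 0.000115).

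Col8a1, a short-chain collagen of vessel walls and the eye, had the highest log2 fold change at 200 µM against GD among the tested collagen genes. It was at 5.46, 5.86 and 3.4 TPM in GD libraries, 6.24, 12.4 and 7.27 TPM at 100 µM, 32.3, 27.4 and 22.01 TPM at 200 µM and 88.4, 85.6 and 80.2 TPM in control libraries. No 2 of the 4 groups overlapped. The log2 fold change was -3.88 in GD against control (SE 0.22, limma adjusted p = 2.82e-09) and 2.27 at 200 µM against GD (SE 0.22, limma adjusted p = 4.81e-06), and the 200 µM mean was 5.55 times the GD mean. Col8a2, its partner chain, averaged 0.453 ± 0.314 TPM in GD, 0.443 ± 0.285 TPM at 100 µM, 0.807 ± 0.129 TPM at 200 µM and 5.71 ± 0.397 TPM in control cells (SD, n = 3 each). Col10a1, a collagen of growth-plate cartilage, was at 0.31 TPM or less in every deprived library and at 6.17 to 6.94 TPM in control libraries.

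Type VI collagen forms beaded filaments from a core of Col6a1, Col6a2 and a further chain, and the levels of these chains were far apart. Col6a3 was at 1.1, 1.62 and 0.59 TPM in GD libraries, 0.9, 2.7 and 1.46 TPM at 100 µM, 3.58, 2.64 and 2.22 TPM at 200 µM and 47.2, 54.35 and 55.1 TPM in control libraries. It was lower in GD by a log2 fold change of -4.69 (SE 0.23, limma adjusted p = 9.28e-10) and higher at 200 µM than in GD by 0.87 (SE 0.23, limma adjusted p = 0.00852). Col6a1 was at 0.13 TPM and Col6a2 at 0.46 TPM at most in any library. Col6a5 was at 0.65, 0.9 and 0.7 TPM in GD, 0.86, 1.33 and 0.99 TPM at 100 µM, 0.97, 0.8 and 0.68 TPM at 200 µM and 1.61, 1.13 and 1.15 TPM in control libraries, with a log2 fold change of -0.39 (limma adjusted p = 0.00971) that was -0.01 after median-of-ratios scaling (limma adjusted p = 0.965) and 0.36 after quantile normalization (limma adjusted p = 0.00842).

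Log2 fold changes in GD lay between -1 and 0 for Col20a1 and Col22a1, which are relatives of Col12a1. Col20a1 was at 3.07, 3.22 and 2.64 TPM in GD libraries, 3.37, 4.0 and 3.36 TPM at 100 µM, 4.02, 4.7 and 3.83 TPM at 200 µM and 6.88, 6.68 and 6.35 TPM in control libraries. Its log2 fold change in GD was -0.94 (limma adjusted p = 2.95e-06), which became -0.03 after quantile normalization (limma adjusted p = 0.719). Col22a1, found at the junction of muscle and tendon, was at 7.16, 5.58 and 3.09 TPM in GD, 7.84, 9.47 and 7.72 TPM at 100 µM, 5.3, 10.87 and 5.86 TPM at 200 µM and 8.95, 4.73 and 7.54 TPM in control libraries. The groups of Col22a1 overlapped, except that every 100 µM library lay above every GD library, and it was the 1 tested member not called in GD against control (-0.38, limma adjusted p = 0.222).

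Fibrillar genes held most of the collagen transcript pool in every group, with a smaller share in each deprived library than in each control library. They took 93.6% ± 0.44 of it in GD, 93.4% ± 0.89 at 100 µM, 93.8% ± 0.66 at 200 µM and 95.9% ± 0.13 in control libraries (SD, n = 3 each). Basement membrane genes took 3.56% ± 0.32 in GD, 3.51% ± 0.48 at 100 µM, 3.47% ± 0.55 at 200 µM and 1.88% ± 0.03 in control libraries. Each deprived group differed from control without overlap in both shares (exact permutation test, two-sided p = 0.1, the smallest possible; 0.2 adjusted over 18 tests). As a share of all transcripts, the basement membrane genes kept 11.9% of their control mean in GD and 31.3% at 200 µM, and the fibrillar genes 6.26% and 16.8%. The fibrillar share is mostly Col1a1 and Col3a1, which together held 77.0% of the pool in GD and 88.6% in control libraries. Gene by gene, the median log2 fold changes in GD were -3.04 for fibrillar and -3.08 for basement membrane genes. Within the pool, Col5a2 took 14.96% in GD, 13.1% at 100 µM, 8.26% at 200 µM and 4.50% in control libraries, while Col1a1 took 52.6%, 47.5%, 48.1% and 52.6% in the same order.

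**Figure D2:**
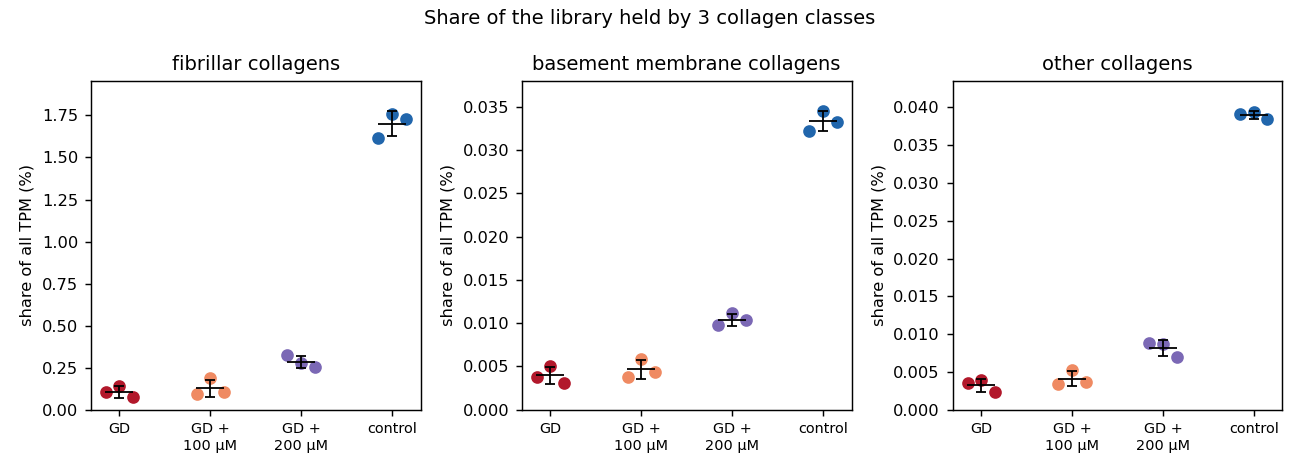
Share of all TPM held by fibrillar, basement membrane and other collagen genes in each library (percent), with 1 point per library, the group mean (line) and bars of 1 SD, on a separate vertical scale for each class. Fibrillar genes hold 0.106% on average in GD, 0.129% at 100 µM, 0.285% at 200 µM and 1.70% in control libraries.

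Ratios between chains were compared within libraries for 3 pairs of genes. The ratio of Col5a1 to Col5a2 was 0.0574 ± 0.0065 in GD, 0.0823 ± 0.0129 at 100 µM, 0.107 ± 0.006 at 200 µM and 0.523 ± 0.010 in control libraries (SD, n = 3 each), a log2 difference of -3.19 in GD against control and of 0.90 at 200 µM against GD. The ratio of Col4a1 to Col4a2, whose shared upstream interval is printed above, was 1.38 ± 0.075 in GD, 1.24 ± 0.094 at 100 µM, 1.16 ± 0.055 at 200 µM and 1.34 ± 0.044 in control libraries. GD differed from control by 0.04 in this ratio (exact permutation test, two-sided p = 0.6), with overlapping groups. The ratio was lower than GD at 100 µM by a log2 difference of -0.16 and at 200 µM by -0.24, and at 200 µM it was -0.20 against control, each without overlap. The ratio of Col3a1 to Col1a1 was 0.464 ± 0.059 in GD, 0.658 ± 0.139 at 100 µM, 0.754 ± 0.077 at 200 µM and 0.684 ± 0.018 in control libraries, with every GD library below every library of the other groups. The tests of Col5a1 to Col5a2 in all 6 comparisons, of those 3 differences in Col4a1 to Col4a2, and of Col3a1 to Col1a1 in GD against control, in each dose against GD and in 200 µM against control (0.14) gave p = 0.1, the smallest that the exact permutation test allows (0.139 adjusted over 18 tests).

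**Figure D3:**
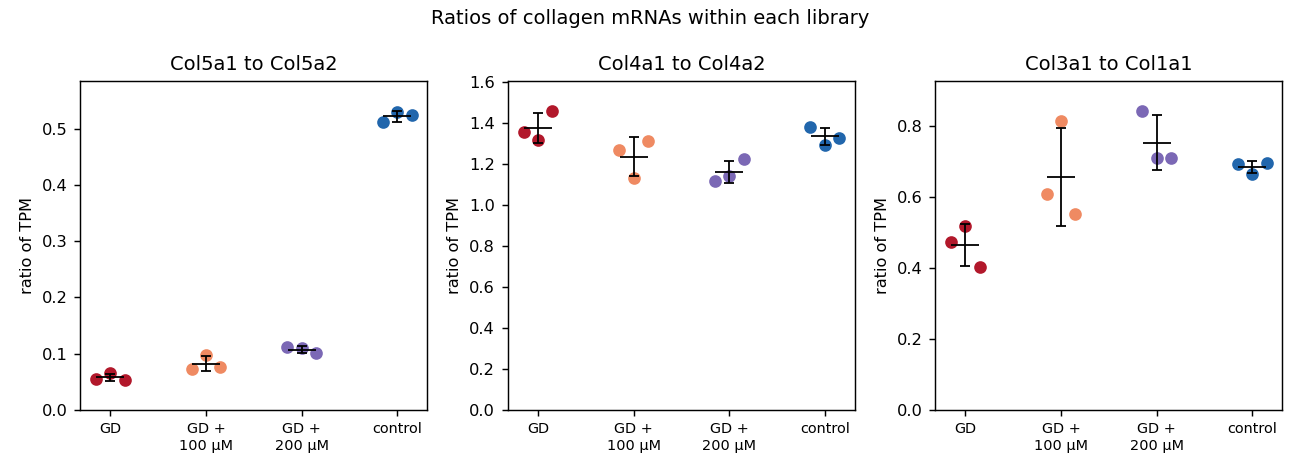
Ratio of the TPM of 2 collagen chains in each library, with 1 point per library, the group mean (line) and bars of 1 SD. Col5a1 to Col5a2 averages 0.0574 in GD libraries and 0.523 in control libraries, whereas Col4a1 to Col4a2 averages 1.38 in GD libraries and 1.34 in control libraries.

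At 100 µM empagliflozin none of the tested collagen genes was called against GD, although some were under other settings. Of 21 tested genes 0 rose and 0 fell (limma adjusted p under 0.05), against a background of 7.51% of all genes higher and 5.46% lower, and 5 were higher and 0 lower at an unadjusted p under 0.05. The median log2 fold change was 0.15, against 0.02 for all genes tested, with a range of -0.21 to 0.68, and 17 of the 21 were positive. Groups did not overlap in Col5a3, Col8a1, Col20a1 and Col22a1, with the 100 µM libraries higher. The shares of all genes without overlap, with a positive value or at the unadjusted p were not computed. No trend is therefore read from these counts. With median-of-ratios scaling, where 7.77% of all genes were higher and 10.9% lower, Col5a3 (0.36, limma adjusted p = 0.0283) and Col8a1 (0.66, limma adjusted p = 0.0294) passed. Without GD replicate 2 the genes that passed were Col4a1 (0.47, limma adjusted p = 0.0453), Col4a2 (0.63, limma adjusted p = 0.0317) and Col5a1 (0.75, limma adjusted p = 0.0454), and without replicate 1 of 100 µM Col8a1 passed (0.86, limma adjusted p = 0.0353). Replicate 2 held the most collagen of the 100 µM libraries (0.198% of TPM), and without it the difference in collagen share between 100 µM and GD, 0.0239 percentage points, became -0.00616.

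At 200 µM collagen genes were higher than in GD. Of 21 tested genes 15 rose and 0 fell, against a background of 32.0% of all genes higher and 11.4% lower. At an unadjusted p under 0.05, for which the share of all genes was not computed, 0 were lower. Those that rose were 6 of 8 fibrillar, 4 of 4 basement membrane and 5 of 9 other genes, with class medians of 0.99, 1.19 and 0.41, against 0.14 for all genes tested. With a pseudocount of 0.1 the class medians were 1.4, 1.27 and 0.85, so their order depended on that setting. After median-of-ratios scaling 15 also rose, where 22.4% of all genes were higher and 24.4% lower. Group overlap remained in Col10a1, Col11a1, Col22a1, Col6a5 and Col8a2, and the share of all genes without overlap was not computed. Leaving out 1 library at a time gave 14 to 16 genes.

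The doses differed from each other as well. At 200 µM 13 of 21 tested genes were higher than at 100 µM and 0 lower, against a background of 25.7% higher and 8.06% lower, with a median of 0.69. With median-of-ratios scaling the counts were again 13 and 0, where 18.7% of all genes were higher and 18.4% lower. Col8a1 led with 1.59 (limma adjusted p = 0.000147), followed by Col3a1 with 1.42 (limma adjusted p = 0.00492) and Col4a2 with 1.32 (limma adjusted p = 0.000107). Col6a3 did not pass (0.54, limma adjusted p = 0.0894), but it did without replicate 2 of 100 µM (0.80, limma adjusted p = 0.0119). Col5a2 passed (0.54, limma adjusted p = 0.0135) but not without replicate 1 or replicate 3 of 100 µM (limma adjusted p = 0.0585 and 0.058).

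At both doses most tested collagen genes were below control. The counts and medians given here include Col10a1, Col2a1 and Col8a2. These passed the filter through control libraries alone, so a lower value at both doses was certain. Col6a5 reached 1 TPM in 3 control libraries and no 200 µM library, so the filter favoured a lower value at 200 µM. At 100 µM 19 of 21 tested genes were lower than in control cells and 0 higher, against a background of 66.6% lower and 14.1% higher, with a median of -2.74. With median-of-ratios scaling 18 were lower, where 38.2% of all genes were, and 1 higher, where 38.4% of all genes were; the higher one was Col22a1 (0.88, limma adjusted p = 0.00752). At 200 µM 20 were lower and 0 higher, against a background of 62.8% lower and 13.4% higher, with a median of -1.70, against -0.50 for all genes. With median-of-ratios scaling the counts were 18 and 0, where 35.6% of all genes were lower and 35.3% higher. In TPM without median-of-ratios scaling, the 200 µM means stood between 5.39% of control for Col6a3 and 38.4% for Col4a2 among the 4 genes of highest mean in each class, and at 63.0% for Col20a1 and 103.8% for Col22a1. In both of these comparisons with control, 0 tested members were higher at an unadjusted p under 0.05 in the main fit. With median-of-ratios scaling 1 was higher at that p at 100 µM. The share of all genes at the unadjusted p was not computed.

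**Figure D4:**
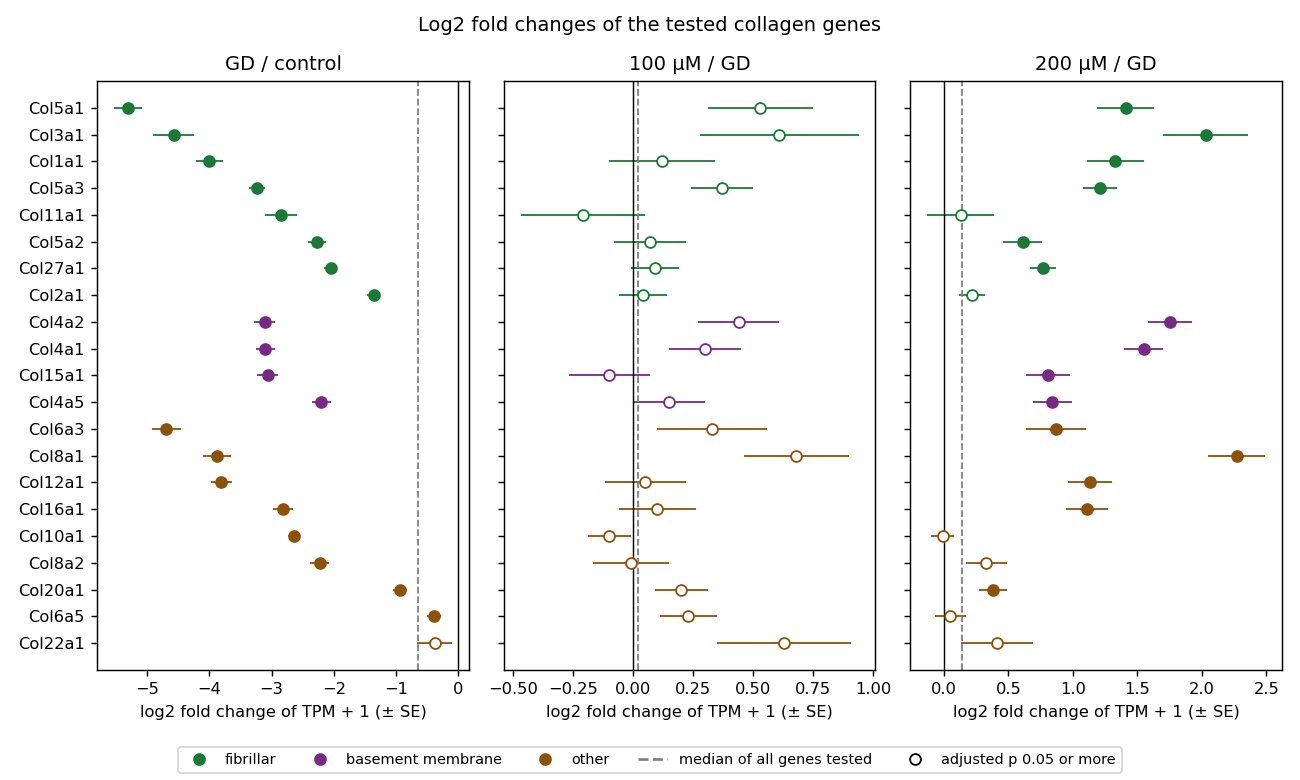
Log2 fold change of the tested collagen genes on the log2(TPM + 1) scale, in GD against control, 100 µM against GD and 200 µM against GD, with bars of 1 SE, colour for class, open points for genes that did not pass and a dashed line at the median of all genes tested. The panels have different horizontal ranges. In GD against control the values run from -5.31 to -0.38, and at 200 µM against GD from -0.01 to 2.27.

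Genes that fold, cut, crosslink and bind collagen were listed by role, and 51 of the 63 in the table were tested. In GD against control 46 were lower and 1 higher, with a median of -1.80, where 67.6% of all genes were lower and 14.0% higher, with a median of -0.65. With median-of-ratios scaling the counts were 40 and 4, where 38.5% of all genes were lower and 38.5% higher. At 200 µM against GD 29 were higher and 7 lower, where 32.0% of all genes were higher and 11.4% lower. With median-of-ratios scaling the counts were 25 and 12, where 22.4% of all genes were higher and 24.4% lower. Both counts of higher genes include Mmp9, which averaged 0.483 TPM in GD, 2.05 TPM at 100 µM, 1.94 TPM at 200 µM and 0.12 TPM in control cells. Mmp9 passed the filter through drug-treated libraries alone, so the filter favoured a higher value with the drug. The gene with the smallest p for each role in GD against control was Crtap for folding, Creb3l1 for regulation, Tll1 for propeptide cleavage, Lox for crosslinking, Tnc for fibril partners, Lamc1 for basement membrane partners, Itga11 for receptors and Mrc2 for uptake.

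Lox, which crosslinks collagen chains outside the cell, averaged 1.06 ± 0.32 TPM in GD, 1.78 ± 0.44 TPM at 100 µM, 13.96 ± 1.41 TPM at 200 µM and 93.1 ± 4.25 TPM in control cells (SD, n = 3 each). Its rise at 200 µM over GD was 2.87 on the log2 scale (limma adjusted p = 2.8e-08), above that of every collagen gene tested. Crtap, a partner of the enzyme that hydroxylates proline in fibrillar chains, averaged 31.6 ± 2.84 TPM in GD, 35.9 ± 4.61 TPM at 100 µM, 64.6 ± 5.22 TPM at 200 µM and 230.0 ± 6.10 TPM in control cells. Lamc1, a laminin chain of the basement membrane, averaged 21.8 ± 5.36 TPM in GD, 26.7 ± 1.41 TPM at 100 µM, 55.2 ± 5.30 TPM at 200 µM and 196 ± 2.99 TPM in control cells. Both fell in GD and rose at 200 µM over GD, by 1.01 for Crtap (limma adjusted p = 4.34e-06) and 1.33 for Lamc1 (limma adjusted p = 7.16e-06). Mrc2, the receptor that takes up collagen fragments, averaged 1.07 ± 0.30 TPM in GD, 1.32 ± 0.53 TPM at 100 µM, 3.53 ± 0.69 TPM at 200 µM and 24.3 ± 1.86 TPM in control cells. Of the same role, Mmp14 also fell in GD (-2.65, limma adjusted p = 1.02e-09). Mmp9 and Mmp13, named after their values were seen, were higher than control at 100 µM (1.28 and 1.88) and at 200 µM (1.39 and 1.35). These 2 genes passed the filter through drug-treated libraries alone, so the filter favoured that direction. Itga11, an integrin chain that binds fibrillar collagen, fell by 3.34 in GD (limma adjusted p = 1.29e-08), and Tnc, the matrix protein tenascin C, fell by 2.48 (limma adjusted p = 5.28e-10). Creb3l1, a transcription factor of collagen-secreting cells, fell by 1.80 in GD (limma adjusted p = 1.19e-08) and rose at 200 µM by 0.87 over GD (limma adjusted p = 7.04e-05). Tll1, a protease that trims procollagen, fell by 2.24 in GD (limma adjusted p = 3.27e-10). It averaged 0.257 TPM in GD, 0.453 TPM at 100 µM, 0.737 TPM at 200 µM and 4.94 TPM in control cells. Tnc averaged 0.163, 0.64, 0.42 and 5.51 TPM in the same order. Tll1 and Tnc passed the filter through control libraries alone, so a lower value in deprived cells was certain. The counts of lower genes above include both.

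Genes for folding and hydroxylation moved in both directions at 200 µM against GD. Of 14 tested, 6 rose and 5 fell, while 32.0% of all genes rose and 11.4% fell. Scaled by median of ratios, 4 rose and 7 fell, beside background shares of 22.4% rising and 24.4% falling. Ppib, a proline isomerase of the endoplasmic reticulum, was the 1 gene of the lists that rose in GD against control, at 725 ± 2.88 TPM in GD and 486 ± 32.6 TPM in control cells (0.58, limma adjusted p = 1.42e-06). It was named after its values were seen, and at 200 µM its log2 difference from GD was -0.78 (423 ± 15.1 TPM, limma adjusted p = 1.03e-06). Serpinh1, the collagen chaperone HSP47, was at 1670.0 ± 194 TPM in GD, 1322 ± 221 TPM at 100 µM, 1284 ± 126 TPM at 200 µM and 3206 ± 179 TPM in control cells. Serpinh1 fell in GD by 0.95 on the log2 scale (limma adjusted p = 4.24e-06), against -0.17 after median-of-ratios scaling (limma adjusted p = 0.153). At 200 µM its log2 difference from GD was -0.38 (limma adjusted p = 0.0169), while Col1a1 and Col3a1 were above it.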

How the data were processed

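RNA of 12 libraries was analysed from a table of 1 column of TPM per library, made by the authors with HISAT2 and StringTie, per the submitters' processing notes. Versions, the build, the annotation and strandedness were not given in the sources used here, so reads of overlapping genes could not be checked. The unit was read from the deposited values, which sum to between 946400.5 and 981389.8 TPM per library. Depth is unknown.

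The fit used limma 3.58.1 in R 4.3.3 with an intensity trend on log2(TPM + 1) of the 12314 genes that 3 or more libraries held at 1 TPM or more. It had a mean for each group and took in all 12 libraries. P-values were adjusted by Benjamini and Hochberg's method across these genes, and 0.05 was the threshold. Fold changes understate those of low genes. Shares and chain ratios were compared by exact permutation tests, two-sided. The script was tested on simulated data. Values per library were given for the 4 tested genes of highest mean in each class, and for the tested gene with the lowest and highest fold change among those that passed in each comparison; Col22a1 and Col11a2 were added after their values were seen. The members and lists were chosen with earlier results of these data known. A planned ratio of Col1a1 to Col1a2 was not analysed here, and that of Col6a1 to Col6a2 was left out because both lie under 1 TPM.

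Alternatives were quantile and median-of-ratios normalization, exclusion of 104 ribosomal protein and ferritin rows, no filter, a filter at 5 TPM, a pseudocount of 0.1, no trend, the 2 groups of a comparison alone, a replicate block and leaving out each library. Upstream sequences are from RefSeq (GRCr8).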

Additional observations from a re-analysis of the deposited data

How the results depend on the processing

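The number of collagen genes lower in GD than in control cells was 20 whichever library was left out. Counts that moved by more than 1.5 times were small. Of genes higher in GD than in control cells (0), quantile normalization gave 1 (Col6a5) and no filter 1 (Col11a2). Of genes higher at 100 µM than in GD (0), quantile normalization, median-of-ratios scaling and leaving out ribosomal protein and ferritin genes each gave 2, no filter and a filter at 5 TPM each gave 1, the replicate block gave 3 (Col4a2, Col5a1 and Col8a1), and leaving out 1 library gave 0 to 3. Without GD replicate 2 these were Col4a1, Col4a2 and Col5a1, and without replicate 1 of 100 µM Col8a1 passed. Genes lower at 200 than at 100 µM numbered 1 (Col6a5) after quantile normalization. Genes higher than control at 100 µM numbered 2 after quantile normalization, 1 after median-of-ratios scaling and 1 with no filter, and at 200 µM 1 after quantile normalization and 1 with no filter.

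Col6a5 in GD against control reversed to 0.36 after quantile normalization. Without replicate 2 of 100 µM the collagen share in 100 µM against GD reversed to -0.00616 percentage points (range over libraries left out -0.00616 to 0.04336) and that of fibrillar genes to -0.006561 (range -0.006561 to 0.04102). Without replicate 3 of 100 µM the log2 ratio of Col3a1 to Col1a1 in 100 µM against control reversed to 0.04 (range -0.24 to 0.04). The cause was not tested. Col20a1 at 200 µM against GD did not pass without replicate 2 of 200 µM (limma adjusted p = 0.059), with the 2 groups alone (0.0663) or after quantile normalization (0.223). Same-numbered libraries correlated between -0.09387 and 0.2124, with 3 of 18 pairs over 0.1, so the numbers were not taken as pairs, although 8 of 12 libraries correlated best with their own number. Depth cannot be read from TPM, so the precision of the lowest values is unknown.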
